A study of Mus musculus with 28 samples.

Results

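Leukocytes that had entered B16.F10 melanomas in control mice were compared between day 12 of tumour growth and an earlier day. The members were 4 of the 28 arrays of the series, 2 from day 12 and 2 from the early day, chosen by their labels as control hosts, B16 tumour and day. Each array held RNA from intratumoral CD45+ cells, which were sorted by fluorescence and lysed directly, with no culture. B16.F10 is a transplantable mouse melanoma line. The control hosts were Foxp3Cre-YFP mice, in which the Foxp3 gene, the master regulator of regulatory T cells, drives Cre recombinase and a yellow fluorescent protein. All hosts used here carried this Cre allele. The Nrp1L/LFoxp3Cre-YFP hosts, used only for comparison (2 arrays early and 2 at day 12), carried in addition loxP-flanked Nrp1, so that Cre removes this receptor gene in cells that express Foxp3. A further comparison used Foxp3Cre-YFP hosts bearing MC38, a mouse colon carcinoma line, at day 6 and day 18 (2 arrays each). The early B16 arrays are day 8 by their titles and day 6 by their source names, so they are called early here. No label says whether the arrays of a group came from separate mice or from pooled mice, so p-values speak only of how far these arrays differ, which may be technical variation.

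CD45 marks nearly all white blood cells, so the sorted cells are a mixture of T cells, natural killer cells, B cells, granulocytes, monocytes, macrophages and dendritic cells. Monocytes leave the blood for a growing tumour along gradients of CC chemokines and there mature into macrophages, which engulf debris, take up lipid, remodel matrix and, in an alternatively activated state, make arginase. Conventional dendritic cells capture tumour antigen and show it to T cells on MHC molecules, and interferons raise antigen presentation and the chemokines that call T cells in. In bulk RNA of such a mixture, a change in the number of cells of a type and a change in RNA per cell cannot be told apart.

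The values are log2 expression values of 17097 genes, with 1 probe set per gene, and every difference below is the day 12 mean minus the early mean on that log2 scale. Pearson's r over all probe sets was 0.9946 between the day 12 arrays, 0.9940 between the early arrays and 0.979 to 0.980 between an early and a day 12 array, and no pair of arrays held identical values. The sort marker Ptprc, which encodes CD45, read 12.74 and 12.61 on the early arrays and 12.68 and 12.66 at day 12. The label was checked against 57 gene lists of cell types and pathways, of which 592 of 675 genes were measured. The 16 fibroblast genes averaged 3.45 and 3.48 early and 3.46 and 3.49 at day 12, below the median of all values on the 4 arrays, 3.80. Melanoma RNA was present at both times: Tyrp1, a pigment enzyme of melanocytes, read 10.06 and 10.09 early and 10.06 and 10.27 at day 12, and the 12 melanocytic genes averaged 6.64 and 6.43 early against 6.6 and 6.82 at day 12. The early and day 12 arrays of control hosts overlapped in both, with a median difference of 0.12 over the 12 genes.

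By day 12 the leukocyte RNA of control tumours had gained monocyte, macrophage, MHC class II, complement, Fc receptor and CC chemokine transcripts. Most genes of the type 1 and mature dendritic cell lists rose too. The medians of these lists ran from 1.15 to 2.22 log2 units, while T cell, natural killer cell and MHC class I lists showed few or no calls. Of the 17097 genes, 2745 (16.1%) passed an adjusted p of 0.05 in limma's moderated test with Benjamini-Hochberg adjustment, 1562 (9.14%) higher and 1183 (6.92%) lower at day 12. At least 2-fold differences were counted for 676 of the genes called higher and 192 of those called lower. These shares of all genes are the background for each list count below, and counts near them say little about a list. The median difference of all genes was -0.0048. With any 1 of the 4 arrays left out the count fell to between 1712 and 1752, and 1117 calls (750 higher, 367 lower) were made under each of 15 alternative settings. The share of calls that were higher, 56.9%, was 68.7% after cyclic loess (1862 higher, 849 lower) and 45.9% after centring on the 75th percentile (1332 higher, 1567 lower), so the excess of rises over falls depends on the scaling. For 28.7% of all genes both day 12 arrays lay above both early arrays, and for 28.9% both lay below. An exact permutation test of 2 arrays against 2 has 6 arrangements and a smallest two-sided p of 0.3333, so that test cannot reach 0.05 for a single value here.

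**Figure D1:**
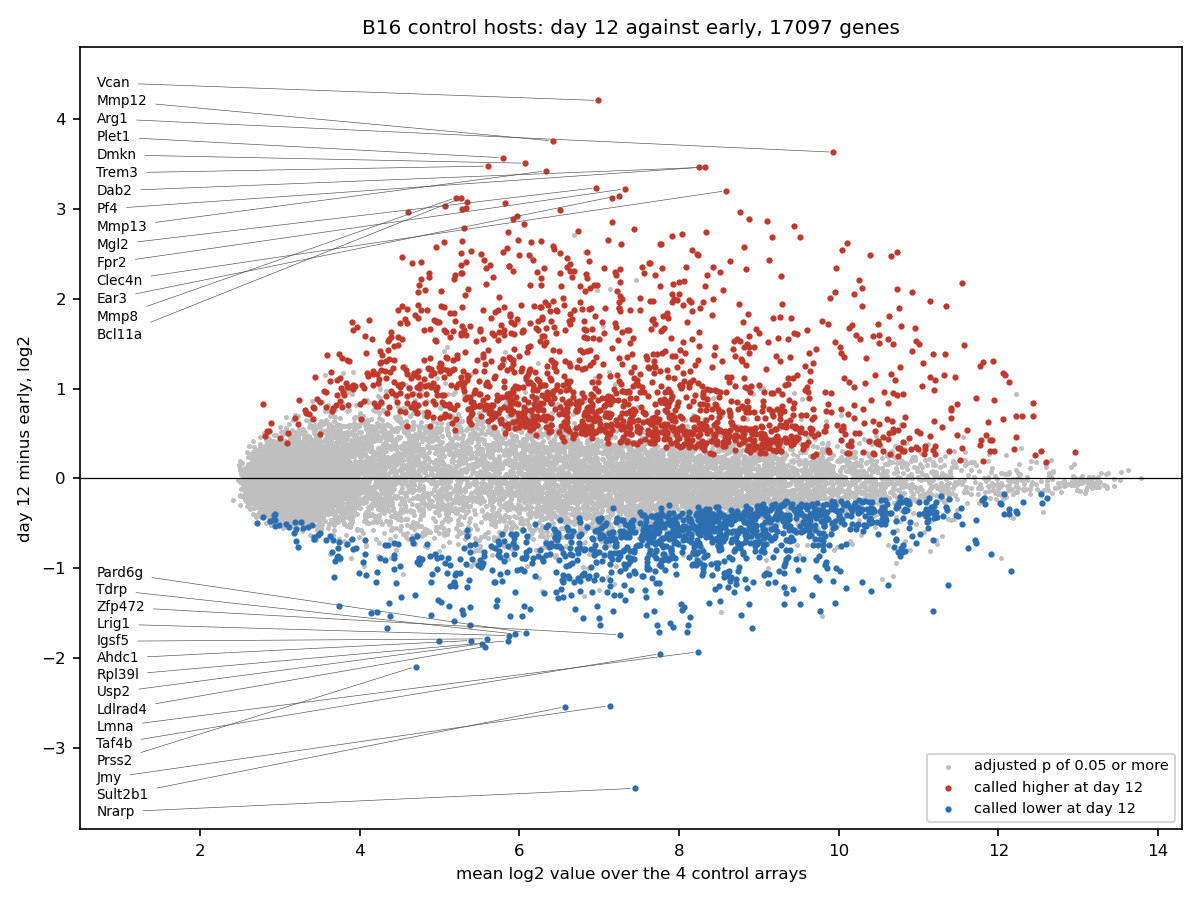
Each point is 1 of 17097 genes, with the mean log2 value over the 4 control arrays on the x axis and the log2 difference, day 12 minus early, on the y axis; red and blue mark the 1562 genes called higher and 1183 called lower. The 15 largest rises and 15 largest falls by the naming rule carry their names, from Vcan at 4.21 to Nrarp at -3.45.

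The largest rises included genes of monocytes and macrophages. Vcan, which encodes the matrix proteoglycan versican and marks inflammatory monocytes, read 4.71 and 5.06 on the early arrays and 8.76 and 9.42 at day 12, a rise of 4.21 ± 0.65 (SE, n = 2 and 2), or 18.4-fold (limma adjusted p = 5.62e-05). Arg1, the arginase of alternatively activated macrophages, read 7.56 and 8.68 early and 11.72 and 11.78 at day 12, a rise of 3.63 ± 0.53 (adjusted p = 2.71e-05). Mmp12, the macrophage elastase, read 4.29 and 4.79 early and 7.94 and 8.65 at day 12, a rise of 3.76 ± 0.47 (adjusted p = 4.36e-06). In all of these genes both day 12 arrays stood far above both early arrays, although the early arrays of Arg1 lay apart from each other. The other 12 of the 15 largest rises, Plet1 (3.57), Dmkn (3.51), Trem3 (3.48), Dab2 (3.46), Pf4 (3.46), Mmp13 (3.42), Mgl2 (3.23), Fpr2 (3.22), Clec4n (3.20), Ear3 (3.15), Mmp8 (3.13) and Bcl11a (3.12), included an activating receptor of myeloid cells (Trem3), a formyl peptide receptor (Fpr2), lectins of macrophages and dendritic cells (Mgl2, Clec4n), the chemokine platelet factor 4 (Pf4), collagenases (Mmp13, Mmp8) and a ribonuclease (Ear3). Mmp8 stands in the neutrophil list and Plet1 in the Langerhans cell list, so the largest rises are not all monocyte or macrophage genes. All 15 named rises kept their calls under each of the 15 alternatives. With all probe sets of a gene averaged the rise was 2.57 for Vcan and 2.10 for Plet1, and among called genes given later 2.0 for Ciita, 1.57 for C5ar1, 1.38 for Mmp14, 1.28 for Ms4a7, 1.22 for Trem2, 1.11 for Cd80, 1.10 for Fabp4, 1.08 for Fcrla and 0.94 for Cxcl11. Ear3 belongs to a family of near-identical genes, whose transcripts its probe set may not separate.

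Monocyte and macrophage lists moved nearly as a whole. Of 14 measured monocyte genes, 12 rose and none fell, with a median difference of 2.22 beside -0.0048 for all genes, and 10 of the 12 kept the call under every alternative. Ccr2, the chemokine receptor by which monocytes leave marrow and enter tissue, read 10.18 and 9.97 early and 11.21 and 11.27 at day 12 (difference 1.16 ± 0.20, adjusted p = 0.000152). F13a1, a clotting factor gene of monocytes, rose by 2.81, Fn1, fibronectin, by 2.97, Chil3, a chitinase-like secreted protein, by 2.62 and Treml4 by 3.0. Ace (-0.02) and Itgal (-0.12) did not pass. All 15 measured macrophage genes rose, by 1.07 to 2.40 with a median of 1.78, and 12 of them kept the call under every alternative.

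Csf1r, the receptor for the growth factor on which macrophages depend, read 6.53 and 6.33 early and 8.74 and 8.91 at day 12, a difference of 2.40 ± 0.21 (limma adjusted p = 6.1e-08). Adgre1, an adhesion receptor that defines mouse macrophages, read 7.23 and 7.03 early and 9.18 and 9.06 at day 12 (1.99 ± 0.32, adjusted p = 9.85e-05). In both genes the groups were far from overlapping, and the replicates lay close together. Cd68, a lysosomal glycoprotein of macrophages, rose by 2.05, Trem2, a lipid-sensing receptor, by 2.36, Sirpa, the receptor for the anti-phagocytic signal CD47, by 2.35, Ms4a7 by 2.40 and Lyz2, lysozyme, by 1.07. Mertk (1.63), Apoe (1.56) and Cd14 (1.53) rose too, but their calls were lost without early replicate 1, with adjusted p reaching 0.0617, 0.0684 and 0.19 across the alternatives. Cd14 also lost its call without day 12 replicate 2, where its p was highest, without early replicate 2 and in the robust fit.

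Among 18 genes of alternatively activated macrophages 13 rose and none fell (median 2.29), and 8 kept the call throughout. Mrc1, the mannose receptor, read 7.31 and 7.74 early and 9.83 and 10.36 at day 12, a difference of 2.57 ± 0.59 (limma adjusted p = 0.00289). Stab1, a scavenger receptor, rose by 2.49 and Selenop, a selenium carrier, by 0.93. Il4ra, the interleukin 4 receptor chain that drives this state (-0.19), Retnla (1.21) and Cd163 (0.32) did not pass. Nos2, the inducible nitric oxide synthase of classically activated macrophages, read 3.82 and 3.31 early and 3.34 and 3.34 at day 12, beside a median of all values of 3.80. The 2 enzymes compete for arginine, and only the arginase transcript was called higher.

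Functions that phagocytes share rose with these markers. All 6 Fc receptor genes, which bind antibody-coated targets, rose and kept the call under every alternative (median 1.77), among them Fcgr1 (2.34), Fcgr2b (2.07), the inhibitory member, and Fcer1g (0.66), their signalling chain. Of 12 complement genes 9 rose (median 1.66), including the C1q chains C1qa (1.72), C1qb (1.59) and C1qc (1.78), the receptors C3ar1 (2.5) and C5ar1 (2.52) and properdin, Cfp (2.54). Of 11 Toll-like receptor genes 8 rose (median 1.36), with Tlr4, the sensor of bacterial lipopolysaccharide, at 2.49, Tlr1 at 2.0 and the nucleic acid sensor Tlr7 at 1.75, whereas Tlr9 (-0.11) and Tlr5 (0.20) did not pass. Of 12 lysosome genes 9 rose (median 0.98), among them Lgmn, legumain, by 2.26 and Lamp2 by 1.52. Counted under every alternative, these were 8 complement, 7 Toll-like receptor and 8 lysosome genes. The lists overlap, as Fcgr1 and the C1q genes also stand in the macrophage list.

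Many genes of lipid uptake and matrix remodelling were also higher at day 12, and the cells that made these transcripts were not measured. Of 14 genes of lipid uptake and efflux 10 rose and none fell (median 1.20), and 5 kept the call throughout: Msr1, a scavenger receptor (2.74), Apoc2 (2.42), Fabp4, a fatty acid carrier (2.28), Plin2, which coats lipid droplets (1.71), and Lipa, the lysosomal acid lipase (0.85). Genes that make lipid held no call upward. None of 14 fatty acid synthesis genes under SREBP1 was higher and 3 were lower, with Scd1, a desaturase, at 4.88 and 5.43 early and 5.64 and 6.29 at day 12 (adjusted p = 0.13), and none of 15 cholesterol synthesis genes under SREBP2 passed in either direction (median 0.03). Of 12 matrix metalloproteinases and inhibitors 6 rose (median 1.48), including Mmp14 (2.35) and the inhibitor Timp1 (2.43), and all 6 kept the call. Hmox1, haem oxygenase, rose by 1.98 and Blvrb, which acts on its product's pathway, by 1.56, the 2 genes of 11 in the iron and oxidative stress list that rose.

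The chemokines that draw monocytes rose as well. Of 10 CC chemokine genes 9 rose and none fell, with a median of 2.14, and Ccl2, Ccl6, Ccl7, Ccl9 and Ccl12 kept the call under every alternative. Ccl2, the main ligand of Ccr2, read 9.16 and 9.78 early and 12.02 and 11.95 at day 12, a difference of 2.52 ± 0.38 (limma adjusted p = 5.01e-05). Ccl7, a second ligand of that receptor, read 9.10 and 9.72 early and 11.89 on both day 12 arrays (2.48 ± 0.48, adjusted p = 0.000717). The day 12 arrays were nearly equal in both genes, and the early arrays differed by about 0.6. Ccl24 (3.03), which attracts eosinophils, rose from 3.24 and 3.86 to 6.21 and 6.96 but lost its call without day 12 replicate 2 or early replicate 1, with adjusted p up to 0.0624. Ccl11, another eosinophil chemokine, did not pass (0.04) at levels below the median of all values.

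Inflammatory cytokine genes were split. Of 14, 7 were called higher and none lower (median 0.94), and Il18 (2.29) and Il1rn, the interleukin 1 receptor antagonist (1.74), kept the call under every alternative. Il1b, the interleukin that drives inflammation through its receptor, read 10.18 and 10.59 early and 11.97 and 12.63 at day 12, a difference of 1.91 ± 0.43 (limma adjusted p = 0.00265). Without day 12 replicate 2 its adjusted p was 0.0598. Tnf (-0.46), Il1a (0.83) and the anti-inflammatory deubiquitinase gene Tnfaip3 (-0.03) did not pass. Among 13 immediate early genes, which respond within minutes to stimulation and also to tissue handling, 6 were higher (median 0.70), with Fos at 11.28 and 11.67 early and 12.70 and 12.60 at day 12. Fos rose by 1.17 and Atf3 by 1.35, whereas Egr1 (0.22) and Junb (0.22) did not pass, and the part of handling in the other calls was not tested.

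**Figure D2:**
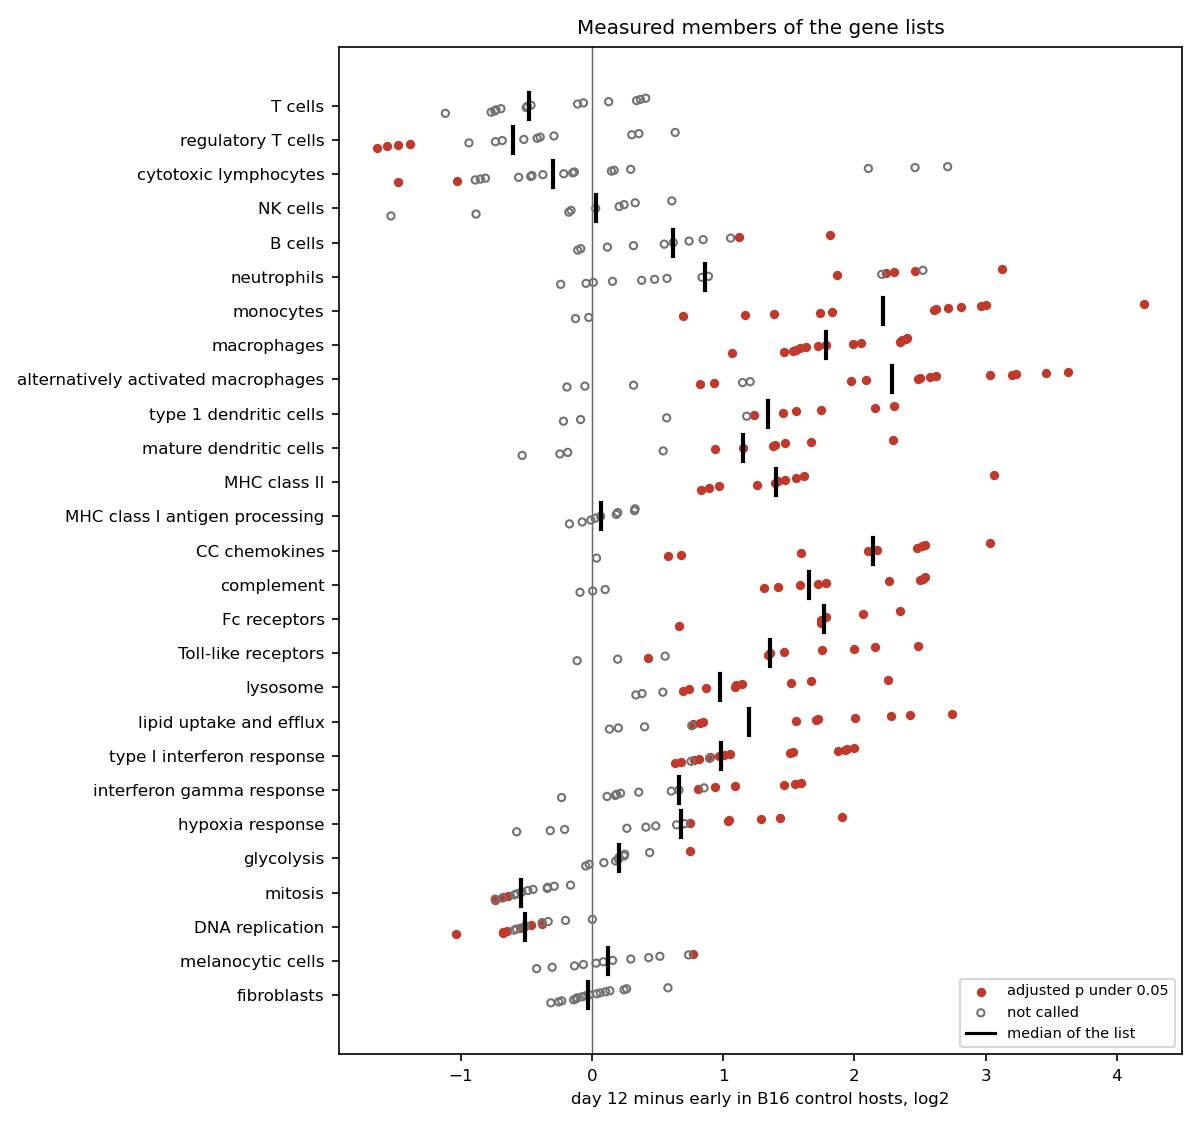
Each circle is 1 measured gene of a list, placed by its log2 difference, day 12 minus early, in B16 control hosts; filled red circles passed an adjusted p of 0.05, open ones did not, and black bars mark list medians. Medians run from 2.29 for alternatively activated macrophages and 2.22 for monocytes to -0.60 for regulatory T cells, and all 15 macrophage and all 10 MHC class II genes are filled and right of 0.

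All 10 measured MHC class II genes rose, by 0.84 to 3.06 with a median of 1.41, and 8 of them kept the call under every alternative. These genes encode the molecules that load and show peptides to CD4 T cells, and Ciita encodes the coactivator that switches them on. Ciita read 4.39 and 4.18 early and 7.29 and 7.40 at day 12, a difference of 3.06 ± 0.32 (limma adjusted p = 4.64e-07). H2-Ab1, the beta chain of the class II molecule I-A, read 11.03 and 11.24 early and 12.32 and 12.46 at day 12 (1.26 ± 0.25, adjusted p = 0.000793). H2-Eb1 (0.89) and H2-Aa (0.84) rose, but both lost their calls without day 12 replicate 2 or early replicate 1, H2-Eb1 also without either of the other arrays, with adjusted p up to 0.168 and 0.1. None of 9 MHC class I genes passed (median 0.07), so the class II and class I lists differed in how many members were called. Promoters of class II genes share an X box and a Y box, the latter read as CCAAT or its complement. In RefSeq sequence (GRCm38.p6) from 250 bases before to 50 after each gene's start, CCAAT on either strand stood in 7 of the 7 class II genes with a promoter at hand (100%), against 41.1% of 27025 genes. The 200 bases before the start are printed for H2-Eb1 and H2-DMb1, 5′ to 3′ on the gene's strand with each match in capitals, as examples of a class II chain and a peptide-loading chain with the letters close to the start. A match in these windows is a description of sequence and not a measured binding site.
H2-Eb1, chr17:34305667-34305866, + strand: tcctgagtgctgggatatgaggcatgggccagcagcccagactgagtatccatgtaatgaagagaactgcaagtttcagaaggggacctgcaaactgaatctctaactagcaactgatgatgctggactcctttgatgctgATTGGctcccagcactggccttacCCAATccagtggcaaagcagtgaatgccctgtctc
H2-DMb1, chr17:34152991-34153190, + strand: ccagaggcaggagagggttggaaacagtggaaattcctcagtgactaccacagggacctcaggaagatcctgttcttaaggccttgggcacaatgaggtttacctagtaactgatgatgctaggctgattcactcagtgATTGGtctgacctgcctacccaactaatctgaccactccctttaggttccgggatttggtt

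Conventional dendritic cells of type 1 cross-present tumour antigen to CD8 T cells. Of 10 genes in their list 6 rose and none fell (median 1.35), with 5 of the rises kept under every alternative. The cells that made these transcripts were not measured, and Tlr3 also stands in the Toll-like receptor list. Xcr1, their defining chemokine receptor, read 4.58 and 4.95 early and 7.41 and 6.74 at day 12, a difference of 2.31 ± 0.51 (limma adjusted p = 0.00228). Tlr3 (2.16), Cadm1 (1.74), Wdfy4 (1.55), required for cross-presentation, and Batf3 (1.46), required for the lineage, rose too. Irf8, which other myeloid and lymphoid cells also express, was at -0.22 and Flt3 at 1.18, and neither passed. Of 9 genes of type 2 dendritic cells 3 rose (Cd209a 2.14, Cd209d 1.89, Kmo 1.77) and 1 fell (Epcam -1.59), but none of these calls held under every alternative. Without day 12 replicate 2 the adjusted p was 0.1 for Cd209a, 0.101 for Cd209d (difference 1.23) and 0.0516 for Kmo, Cd209a also lost its call without early replicate 1, and Epcam lost its call when all its probe sets were averaged (-0.64). Among 11 genes of mature dendritic cells 7 rose (median 1.15), and the T cell costimulators Cd86 (1.47), Cd80 (1.67) and Cd40 (1.39) kept the call throughout. Cd86 read 7.51 and 7.52 early and 9.02 and 8.96 at day 12. Fscn1 (-0.18), Relb (-0.24) and Il12b (0.54), other genes of matured cells, did not pass.

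Interferon-stimulated genes rose in B16 control tumours. Type I interferons signal through STAT proteins and interferon regulatory factors, which bind GAAA repeats in the promoters of antiviral genes. Of 16 genes of this response 14 rose and none fell, with a median of 0.99, and 9 kept the call under every alternative. Usp18, the enzyme that removes the ubiquitin-like protein ISG15 and dampens the pathway, read 7.39 and 7.46 early and 9.45 and 9.39 at day 12, a difference of 2.0 ± 0.22 (limma adjusted p = 9.81e-07). Oas2, an activator of RNA decay, read 5.60 and 5.57 early and 7.52 on both day 12 arrays (1.93 ± 0.18, adjusted p = 1.1e-07). Replicates were within 0.1 of each other in both genes. Ifit2 (1.95), Oasl2 (1.88), Mx1 (1.53), Rsad2 (1.51) and Ifit3 (1.05), all antiviral effectors, rose, and Oas3 (0.76) and Oasl1 (0.90) did not pass. GAAA and a further GAAA separated by any 2 bases, on either strand, stood in the 300-base RefSeq promoter window of 5 of 10 genes of this list with a promoter at hand (50%), against 3.99% of 27025 genes. Ifit3 and Rsad2 are printed as called members that carry the repeat, 200 bases up to the start with matches in capitals. They read as TTTC repeats because the match lies on the opposite strand.
Ifit3, chr19:34583329-34583528, + strand: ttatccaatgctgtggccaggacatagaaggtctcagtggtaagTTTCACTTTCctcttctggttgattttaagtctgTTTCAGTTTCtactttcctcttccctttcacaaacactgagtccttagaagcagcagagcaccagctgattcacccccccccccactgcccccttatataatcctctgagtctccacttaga
Rsad2, chr12:26456453-26456652, - strand: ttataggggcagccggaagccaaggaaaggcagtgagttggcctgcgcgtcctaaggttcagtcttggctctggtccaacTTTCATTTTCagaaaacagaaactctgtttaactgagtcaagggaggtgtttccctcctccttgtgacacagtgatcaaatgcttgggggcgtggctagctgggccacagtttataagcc

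Of 15 genes of the interferon gamma response 6 rose and none fell (median 0.66). Cxcl9, a ligand of CXCR3 that recruits activated T cells, read 9.68 and 9.74 early and 11.27 and 11.33 at day 12, a difference of 1.60 ± 0.21 (limma adjusted p = 7.18e-06). Cxcl10 (1.55), Cxcl11 (1.47), its companion ligands, Gbp2 (1.09) and Irgm1 (0.94), both guanosine triphosphatases of cell defence, also kept the call under every alternative. Irf1 (0.18), Igtp (0.12) and Gbp3 (0.36) did not pass. Cd274, which encodes the inhibitory ligand PD-L1, read 9.04 and 9.34 early and 9.86 and 9.85 at day 12. It was higher on both day 12 arrays but did not pass (0.66 ± 0.25, adjusted p = 0.0771). Ifng itself read 10.90 and 10.73 early and 10.55 and 10.15 at day 12 (adjusted p = 0.569), lower on both day 12 arrays.

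Neutrophil genes were uneven. Of 16, 5 rose and none fell (median 0.86): Csf3r, the receptor for their growth factor, from 4.92 and 5.21 to 7.51 and 7.22 (2.30 ± 0.21, limma adjusted p = 1.29e-07), Cd177 (2.46), Mmp8 (3.13), Trem1 (2.24) and Slpi (1.87). Trem1 and Slpi lost their calls without day 12 replicate 2, with adjusted p of 0.112 and 0.0635, and Trem1 also without early replicate 1. S100a8, the abundant calcium-binding protein of neutrophils and monocytes, read 5.04 and 6.08 early and 7.46 and 8.71 at day 12. Its arrays did not overlap, yet the replicates lay more than 1 unit apart and it did not pass (2.52 ± 0.93, adjusted p = 0.0686). Granule genes of immature neutrophils stayed near the bottom of the scale at both days, with Mpo at 0.01, Elane at -0.04, Camp at -0.24 and Ngp at 0.16. None of 12 basophil and mast cell genes passed, with Mcpt8, a basophil protease, at 5.0 and 3.89 early and 3.89 and 3.52 at day 12, and none of 6 eosinophil genes, with Siglecf at 2.74 and 2.96 early and 3.23 and 3.25 at day 12.

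Lymphocyte lists held few calls, beside 9.14% of all genes called higher and 6.92% called lower. None of 14 T cell genes passed (median -0.48, 10 of 14 lower), with the receptor chains Cd3e at 0.34, Cd3g at -0.06 and Cd3d at -0.11, and the costimulator Icos at -1.12. Cd8a, the coreceptor of cytotoxic T cells, read 10.26 and 9.93 early and 10.67 and 10.41 at day 12 (adjusted p = 0.645), and Cd4 read 5.82 and 5.40 early and 5.49 and 5.45 at day 12 (adjusted p = 0.866). Runx3, a transcription factor of CD8 T cells, fell by 0.74. Of 18 cytotoxic genes 2 fell: Eomes (-1.48), a transcription factor of memory and killer cells, and Gzma (-1.03), a granzyme, each losing its call when any 1 of the 4 arrays was left out, with adjusted p up to 0.0746 and 0.16. Gzmb read 12.95 and 12.54 early and 12.63 and 12.12 at day 12 (adjusted p = 0.64). The granzymes Gzmf (2.71), Gzmd (2.46) and Gzme (2.11), near-identical neighbours whose probe sets may not tell them apart, were higher on both day 12 arrays and did not pass. None of 9 natural killer genes passed (median 0.03), with the defining receptor Ncr1 at 7.99 and 7.54 early and 8.28 and 7.90 at day 12. Among 7 inhibitory receptors of T cells Btla (1.01) and Cd244a (0.88) rose, the latter not without early replicate 2 (0.66, adjusted p = 0.0571).

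The regulatory T cell genes that were called were all lower. Of 14, 4 were lower and none higher (median -0.60), beside 6.92% and 9.14% of all genes. The T cell list, with no call, had a median of -0.48, and 10 of its 14 genes had lower means at day 12. Izumo1r, which encodes folate receptor 4, read 7.96 and 7.69 early and 6.05 and 6.34 at day 12, a difference of -1.63 ± 0.31 (limma adjusted p = 0.000546), and kept the call under every alternative. Il2ra, the interleukin 2 receptor alpha chain (-1.56), and Il10, an inhibitory cytokine (-1.48), lost the call when any 1 of the 4 arrays was left out, with adjusted p up to 0.11 and 0.15. Ccr8 (-1.38) lost it without day 12 replicate 1 or early replicate 2, with adjusted p up to 0.222 and a difference of -0.90. Foxp3 itself read 3.44 and 3.08 early and 2.93 and 3.02 at day 12, below the median of all values on every array, so it gave no measure of these cells. Nrp1, which myeloid cells also express, read 9.47 and 9.57 early and 10.24 and 10.08 at day 12, higher on both day 12 arrays without passing (0.64 ± 0.23, adjusted p = 0.0576). In the B cell list 2 of 11 genes rose, Fcrla (1.81) and Cd79b (1.12, with adjusted p up to 0.197 without early replicate 2 and above 0.05 without any other 1 array), while Cd79a (-0.08) and Pax5 (0.12) did not pass.

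**Figure D3:**
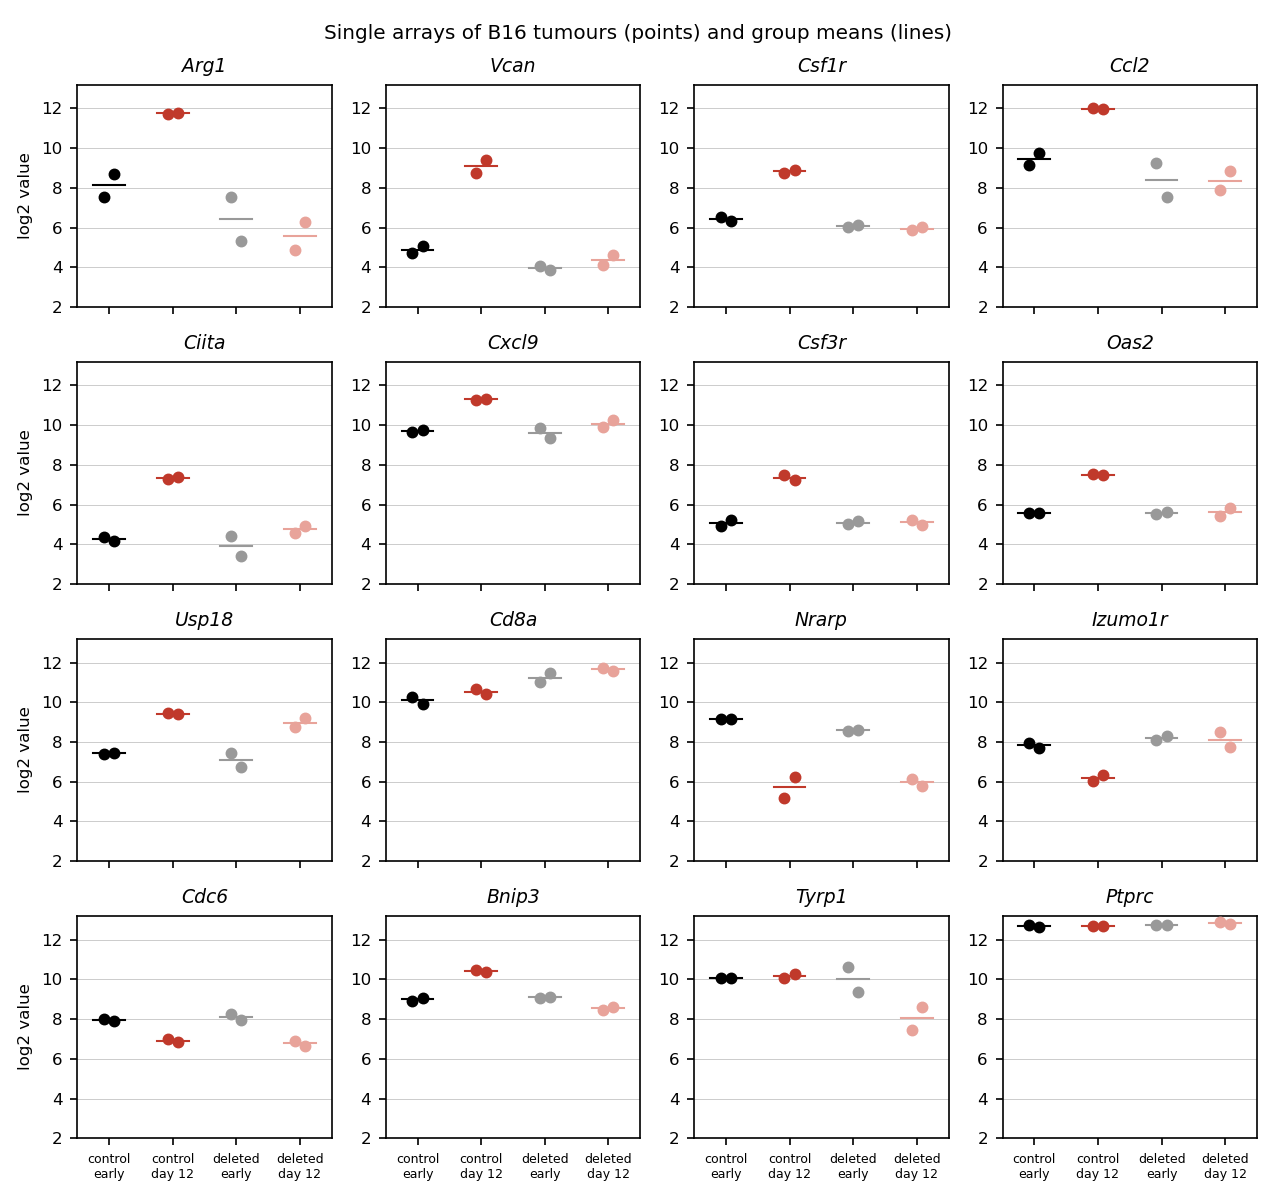
Log2 values of 16 genes on single B16 arrays (points) with group means (lines), for control hosts early and at day 12 and for Nrp1-deleted hosts early and at day 12. Arg1, Vcan, Csf1r, Ccl2 and Ciita were called higher in control hosts and not called in deleted hosts, Usp18 was called higher and Nrarp lower in both, and Ptprc stays between 12.61 and 12.74 on the control arrays.

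The largest falls were in genes of another kind. Nrarp, an inhibitor of Notch signalling that Notch itself induces, read 9.17 and 9.16 early and 5.19 and 6.25 at day 12, a difference of -3.45 ± 0.34 or 10.9-fold (limma adjusted p = 3.06e-07). Sult2b1, a sterol sulfotransferase, read 8.08 and 7.60 early and 4.89 and 5.71 at day 12 (-2.54 ± 0.36, adjusted p = 1.89e-05). Jmy, a cofactor of p53 that also builds actin filaments, read 8.49 and 8.30 early and 5.59 and 6.14 at day 12 (-2.53 ± 0.24, adjusted p = 1.5e-07). In all of them both day 12 arrays lay far below both early arrays, and the day 12 arrays lay further apart from each other than the early ones. Taf4b (-1.95), a subunit of a general transcription factor, Lmna (-1.93), the nuclear lamin A/C gene, Ldlrad4 (-1.87), an inhibitor of TGF-beta signalling, Usp2 (-1.84), a ubiquitin protease, Ahdc1 (-1.80), Zfp472 (-1.74), Tdrp (-1.73) and Pard6g (-1.71), a polarity gene, fell under every alternative as well. With all probe sets of a gene averaged, though, the differences were -0.60 for Lmna, -0.84 for Ldlrad4, -0.58 for Ahdc1 and -0.97 for Pard6g. Lrig1 (-1.75) lost its call without day 12 replicate 1 (adjusted p = 0.0705), Igsf5 (-1.78) without day 12 replicate 2 or early replicate 1 (up to 0.121), and Rpl39l (-1.81) without day 12 replicate 1 or early replicate 2 (up to 0.282, difference -1.13). Prss2, a trypsinogen with close paralogs, read 7.25 and 4.23 early and 3.59 and 3.72 at day 12, so 1 early array carried its difference. It fell by 2.09 with both early arrays, and differed by -0.58 (adjusted p = 0.337) without early replicate 1 and by -3.60 without early replicate 2.

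Proliferation genes were lower in part. Of 15 DNA replication genes 7 fell and none rose (median -0.51), and Cdc6 (-1.03) and Cdt1 (-0.68), which load the replicative helicase, kept the call under every alternative. Cdc6 read 8.0 and 7.91 early and 7.0 and 6.84 at day 12 (limma adjusted p = 0.000572). All 15 mitosis genes had lower means at day 12 (median -0.54), but only Mki67, Top2a and Birc5 passed. Mki67, a marker of cycling cells, read 10.23 and 10.12 early and 9.65 and 9.22 at day 12 (-0.74 ± 0.23, adjusted p = 0.0251). Its call was lost after cyclic loess, in the robust fit and without day 12 replicate 2 or either early array (adjusted p up to 0.277). Top2a (-0.68) and Birc5 (-0.64) were lost without day 12 replicate 2 or either early array too (up to 0.264 and 0.396), and Top2a without day 12 replicate 1. TTTGAA, the core of the element through which cell cycle genes are silenced in resting cells, stood on either strand in the RefSeq promoter window of 10 of 12 mitosis genes (83.3%), against 20.2% of 27025 genes. The 200 bases before the start of Mki67 and Top2a are printed because both fell, with matches in capitals (TTCAAA is the complement).
Mki67, chr7:135716380-135716579, - strand: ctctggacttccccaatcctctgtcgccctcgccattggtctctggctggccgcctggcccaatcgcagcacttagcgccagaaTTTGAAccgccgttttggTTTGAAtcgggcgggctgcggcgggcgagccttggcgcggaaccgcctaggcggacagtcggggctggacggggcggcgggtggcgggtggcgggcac
Top2a, chr11:99024190-99024389, - strand: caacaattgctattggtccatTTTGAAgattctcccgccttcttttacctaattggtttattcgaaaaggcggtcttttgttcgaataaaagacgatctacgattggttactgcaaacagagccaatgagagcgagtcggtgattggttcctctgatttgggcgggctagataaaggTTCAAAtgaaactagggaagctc

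Genes of the hypoxia response rose in part and glycolysis held 1 call, beside 9.14% of all genes called higher. Hypoxia-inducible factors bind ACGTG in the promoters of genes that adapt cells to low oxygen. Of 14 measured hypoxia genes 6 rose and none fell (median 0.68). Bnip3, a mediator of mitochondrial clearance, read 8.91 and 9.08 early and 10.48 and 10.38 at day 12 (1.44 ± 0.16, limma adjusted p = 9.91e-07). Car9, a carbonic anhydrase, read 4.25 and 4.41 early and 6.14 and 6.34 at day 12 (1.91 ± 0.26, adjusted p = 1.28e-05). Ankrd37 (1.29) also kept its call under every alternative, while Hk2, a hexokinase (0.75), lost it without early replicate 1 (adjusted p = 0.0737), P4ha2 (1.04) without day 12 replicate 1 or early replicate 1 (up to 0.138) and Egln3 (1.05) without any 1 array (up to 0.13). Vegfa, the vascular growth factor, read 8.62 and 8.56 early and 8.23 and 8.53 at day 12 (-0.21, adjusted p = 0.742), and Slc2a1 (0.41) and Pdk1 (0.27) did not pass. Of 10 glycolysis genes Pfkl alone rose (0.75), with Ldha at -0.02 and Gapdh at 0.20. ACGTG on either strand stood in the promoter window of 11 of 13 hypoxia genes (84.6%) and 7 of 10 glycolysis genes (70%), against 21.8% of 27025 genes, so the letters were common in both lists although their calls differed. The 4 printed promoters are called members with matches in capitals (CACGT is the complement, and in Bnip3 both strands match at 1 place).
Bnip3, chr7:138909507-138909706, - strand: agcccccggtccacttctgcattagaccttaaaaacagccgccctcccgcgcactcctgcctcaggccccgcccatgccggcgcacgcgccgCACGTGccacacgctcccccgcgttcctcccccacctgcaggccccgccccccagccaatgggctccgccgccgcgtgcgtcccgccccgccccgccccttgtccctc
Car9, chr4:43506826-43507025, + strand: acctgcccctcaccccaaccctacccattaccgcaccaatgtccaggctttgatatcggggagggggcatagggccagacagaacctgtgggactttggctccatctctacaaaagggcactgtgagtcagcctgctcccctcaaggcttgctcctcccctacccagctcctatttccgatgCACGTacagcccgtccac
Ankrd37, chr8:45999851-46000050, - strand: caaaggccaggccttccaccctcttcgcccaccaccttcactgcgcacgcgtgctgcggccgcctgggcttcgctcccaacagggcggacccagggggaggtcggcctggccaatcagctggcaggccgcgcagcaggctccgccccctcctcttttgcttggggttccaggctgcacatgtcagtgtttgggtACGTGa
Hk2, chr6:82774455-82774654, - strand: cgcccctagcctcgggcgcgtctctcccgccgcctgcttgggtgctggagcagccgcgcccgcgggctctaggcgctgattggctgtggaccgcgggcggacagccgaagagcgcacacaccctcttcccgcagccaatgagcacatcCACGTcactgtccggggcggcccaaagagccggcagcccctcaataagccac

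Among the remaining lists most genes did not pass. Their counts stand beside 9.14% of all genes called higher and 6.92% called lower, so a single call says little about a list. Of 11 TGF-beta pathway genes 1 was higher and 3 were lower. Tgfbi, a secreted matrix protein of macrophages, rose from 10.16 and 10.15 to 12.10 and 12.15, and Smad7, the inhibitory Smad, fell from 9.97 and 10.05 to 8.26 and 8.97 (-1.40), each under every alternative. Smad3 (-0.42) and Itgav (-0.39) were lower too but lost their calls after cyclic loess, without the trend and without any 1 of the 4 arrays, Smad3 also with the replicate block or all probe sets averaged (limma adjusted p up to 0.542 and 0.183). Of 10 arginine and polyamine genes 3 rose, led by Arg1, and Odc1, ornithine decarboxylase, fell by 1.23, though not without day 12 replicate 1 (adjusted p = 0.0517). Hspa1b (1.92) was the 1 heat shock gene of 7 that rose, and Kdr (1.60), a vascular receptor, the 1 of 10 endothelial genes. None of the genes of fibroblasts, skeletal muscle, adipocytes, erythroid cells, platelets, type 2 lymphocytes or gamma-delta and type 17 T cells passed. Of 9 keratinocyte genes 2 were lower (median -0.24) and Krt14, a defining keratin, stayed below 3.80 on all 4 arrays. In the whole set of 57 lists, 13 had most of their measured members called in 1 direction, upward in each: monocytes, macrophages, alternatively activated macrophages, type 1 and mature dendritic cells, MHC class II, type I interferon response, CC chemokines, lipid uptake, lysosome, complement, Fc receptors and Toll-like receptors. That number was 8 without early replicate 1.

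The same days were compared in Nrp1-deleted hosts, whose arrays are not shared with the controls. There 2776 genes (16.2%) were called, 1563 (9.14%) higher and 1213 (7.09%) lower at day 12. Of the 1562 genes higher in control hosts 488 were also higher in deleted hosts (31.2% of either list) and 107 were lower there, and the median difference of the 1562 in deleted hosts was 0.21. Of the 1183 lower in control hosts 513 were also lower in deleted hosts (43.4% of the control list and 42.3% of the other) and 10 were higher, with a median of -0.37. Pearson's r of the day differences across the 17097 genes was 0.27, where genes are not independent replicates. The difference between the day effects (control minus deleted) passed for 1075 genes (6.29%), 754 (4.41%) further up in control hosts and 321 (1.88%) further down. Without single arrays of the 4 groups it passed for 601 to 980 genes. Among the 1562 control rises 586 (37.5%) passed that test upward, and among the 1183 control falls 113 (9.55%) passed it downward. Both sets were chosen by the control difference, which is itself part of that test, so the choice raises these shares.

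Most macrophage genes and many other myeloid genes passed that test. Of the 15 macrophage genes 14 passed the test of the difference upward, beside 4.41% of all genes, all but Lyz2, and the median of the list in deleted hosts was -0.52. The calls for Adgre1, Mertk, Apoe and Cd14 were lost under at least 1 alternative. Csf1r read 8.74 and 8.91 at day 12 in control hosts, a rise of 2.40, and differed by -0.15 between days in deleted hosts (limma adjusted p of the difference 8.85e-06). Arg1 read 7.55 and 5.34 early and 4.86 and 6.28 at day 12 in deleted hosts, against its rise of 3.63 in controls (difference of the day effects 4.50 ± 0.75, adjusted p = 0.000381). Upward calls of the difference were also made for 8 of 14 monocyte, 9 of 12 lysosome, 8 of 12 complement, 6 of 6 Fc receptor, 6 of 10 MHC class II, 5 of 10 type 1 dendritic cell and 9 of 18 alternatively activated macrophage genes. Of the 15 named rises the test passed for all but Bcl11a, which rose by 1.96 in deleted hosts too, and the calls for Vcan, Plet1, Mmp13, Mgl2, Clec4n and Mmp8 were lost when single arrays were left out, early control replicate 1 in each of them and early deleted replicate 1 in all but Clec4n. The 15 named rises were chosen as the largest control differences, on the same control arrays, so their passes are no independent evidence of a difference between genotypes. The early arrays of deleted hosts lay apart, with means of the macrophage list of 7.96 and 6.72 against 8.0 and 8.14 in early controls. Their melanocytic genes averaged 7.15 and 6.31 early and 4.82 and 5.56 at day 12, so that 9 of 12 fell in deleted hosts (median -1.85) and none fell in controls. Of these 12 melanocytic genes 9 also passed the test of the difference upward (median 2.06), so upward calls were not limited to myeloid lists. The part of these shifts in the differences between genotypes was not tested.

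Several interferon genes and some of the named falls were called the same way in both genotypes. Of the 16 type I interferon genes 8 rose in deleted hosts too (median 0.54), beside 9.14% of all genes. The test of the difference passed upward for 4 of them, beside 4.41% of all genes. Usp18 rose by 1.86 in deleted hosts beside 2.0 in controls (adjusted p of the difference in limma 0.887), whereas Oas2 differed by 0.04 there beside 1.93 (adjusted p = 4.6e-05). Of the 15 named falls, Nrarp (-2.62), Sult2b1 (-2.11), Taf4b (-2.08), Lmna (-1.87), Zfp472 (-1.71), Usp2 (-1.52), Ldlrad4 (-1.42) and Jmy (-1.36) fell in deleted hosts as well. Ahdc1 (-0.74), Lrig1 (-0.58), Pard6g (-0.49), Tdrp (-0.43) and Igsf5 (-0.37) were not called there, nor were Prss2 (0.17) and Rpl39l (0.46), whose day 12 means were the higher. Of the 15, only Jmy passed the test of the difference (-1.16, adjusted p = 0.0383), and that call was lost after cyclic loess and without any 1 of the 8 arrays but day 12 control replicate 2. DNA replication genes had medians of -0.51 in controls and -0.42 in deleted hosts, and 1 of the 15 passed the test of the difference downward, beside 1.88% of all genes. Of 10 glycolysis genes 6 fell in deleted hosts (median -0.33), and of 14 hypoxia genes 7 fell (median -0.65), beside 7.09% of all genes. In controls their medians were 0.20 and 0.68, with 1 and 6 genes called higher. The test of the difference passed upward for 7 and 8 of them, beside 4.41% of all genes.

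**Figure D4:**
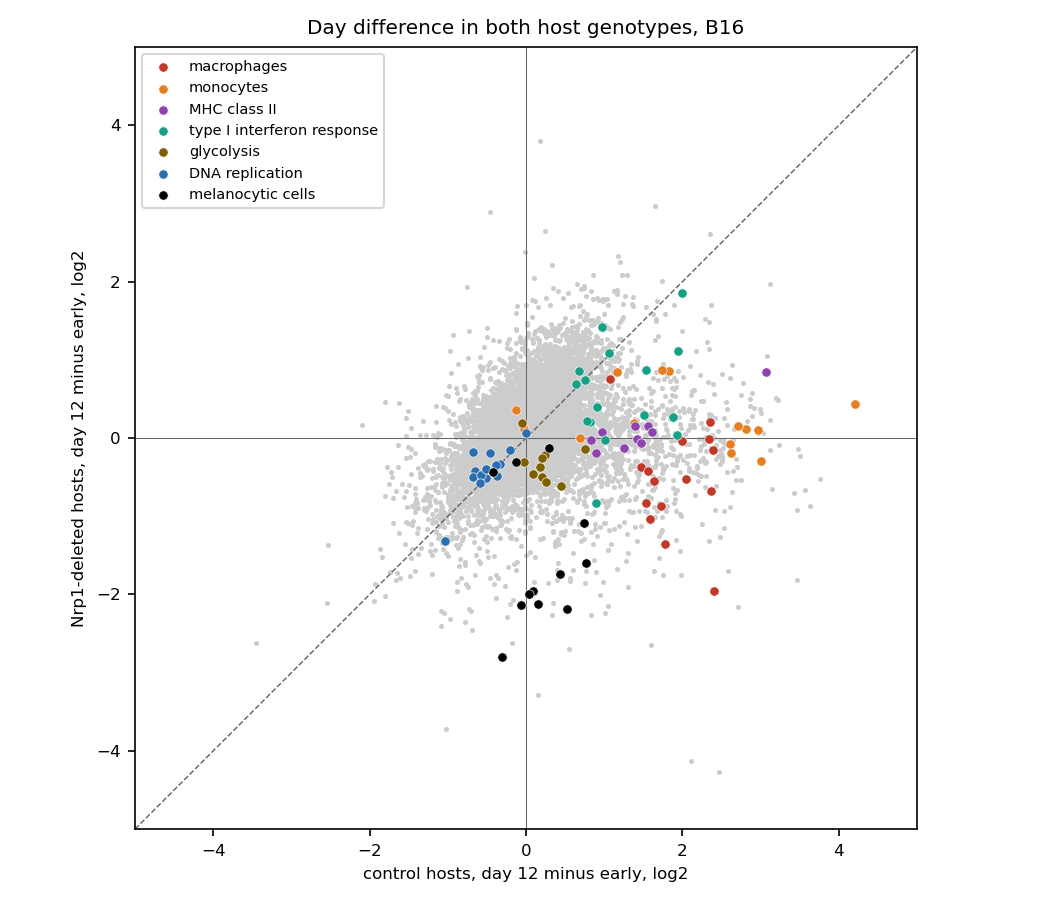
Each point is a gene, with the log2 day difference in B16 control hosts on the x axis and in Nrp1-deleted hosts on the y axis; the dashed line marks equal differences. Macrophage genes lie between 1.07 and 2.40 on the x axis with a median of -0.52 on the y axis. DNA replication genes have medians of -0.51 and -0.42, and 1 of the 15 passed the test of the difference downward.

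MC38 tumours of the same control genotype were compared between day 18 and day 6, a longer span, on arrays whose values had another overall distribution, so each day difference was taken inside its own tumour. There 1528 genes (8.94%) were called, 752 (4.4%) higher and 776 (4.54%) lower. Of the 1562 B16 rises 204 were also higher in MC38 (13.1% of the B16 list and 27.1% of the MC38 list) and 127 were lower, and of the 1183 falls 217 were also lower (18.3% and 27.96%) and 28 higher. Pearson's r across all genes was 0.083. The difference between the day effects (B16 minus MC38) passed for 1632 genes (9.55%), 995 (5.82%) further up and 637 (3.73%) further down in B16, and for 1019 to 1193 without single arrays.

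Many lists differed between the tumours by count. Of the 14 monocyte genes 4 fell and 1 rose in MC38 (median -0.67), and 11 passed the test of the difference upward, beside 5.82% of all genes. Of the 16 neutrophil genes 5 fell in MC38 (median -0.85) and 9 passed the difference upward. The type I interferon genes had a median of -0.23 in MC38 and 13 of 16 passed the difference upward. So did 5 of 6 Fc receptor, 10 of 13 immediate early, 7 of 11 mature dendritic cell, 7 of 11 Toll-like receptor and 6 of 10 CC chemokine genes. MHC class II was nearer: 7 of 10 genes rose in MC38 too (median 0.94), and 3 passed the difference. Macrophage genes had a median of 0.56 in MC38, none passing there and 7 of 15 passing the difference upward, on list means of 11.28 and 11.23 at day 6 and 11.73 and 11.74 at day 18. Mitosis genes moved in opposite directions by their medians, -0.54 in B16 and 0.68 in MC38, where 7 of 15 rose, and 8 passed the difference downward, beside 3.73% of all genes.

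**Figure D5:**
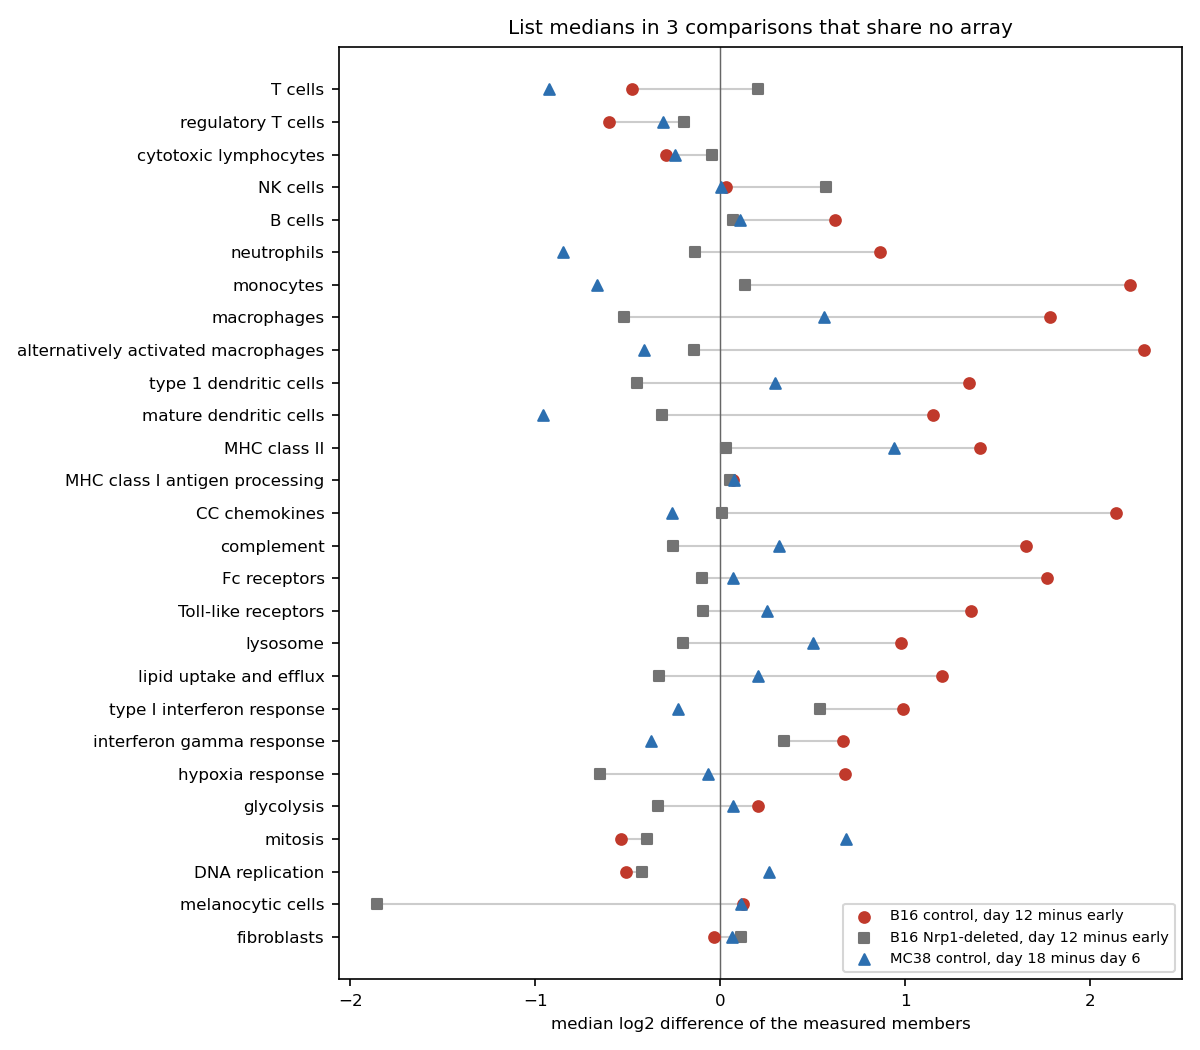
Median log2 day difference of the measured members of each list in B16 control hosts (circles), B16 Nrp1-deleted hosts (squares) and MC38 control hosts (triangles), comparisons that share no array. For macrophages the medians are 1.78, -0.52 and 0.56, for MHC class II 1.41, 0.03 and 0.94, and for the type I interferon response 0.99, 0.54 and -0.23.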

How the data were processed

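RNA of sorted CD45+ cells was extracted with an RNeasy Micro kit and labelled by the Affymetrix Two-Cycle protocol, per the labels' protocols. The authors deposited log2 values per probe set, which per the submitters' processing notes came from RMA in Partek 6.6. Array platform annotation named 28898 of 45141 probe sets with 1 gene, 551 with several, which were left out, and 15692 with none; 104 were controls. Each of 17097 genes was read from 1 probe set, that of the highest mean in the 28 arrays. A mean for each of 12 groups was fitted to the deposited values with limma 3.58.1 in R 4.3.3 (lmFit, eBayes with an intensity trend, no filter). P-values were adjusted by Benjamini-Hochberg over all genes, and an adjusted p under 0.05 was a call. With 2 arrays a group, the number of arrays limits the precision. SE is the moderated standard error. Named genes are the 15 largest rises and falls called in each direction whose higher group lay above the median of all values of the 4 arrays (5 each way for differences between day effects), genes fixed by name, and members of the lists. Members, lists and tests were chosen with earlier results of these data known, so list counts are no independent evidence. Ly6c2 and Ccr7 were not analysed here. The fit was also run on simulated arrays with independent noise for each gene. That is a simpler setting than these data, so it checks the code and not the calls. Alternatives covered the probe set choice, a filter on dim genes, scaling, variance model, array weights, arrays in the fit, a replicate block and leaving out each array. The replicate numbers are not taken as pairs: the labels give no shared source, and the deviations of replicate 1 early and at day 12 correlated with r = 0.0876 across genes. Promoter windows come from RefSeq, GRCm38.p6.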

Additional observations from a re-analysis of the deposited data

Results flagged for a closer look

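Results here are differences between day effects that passed limma's test; groups of 2 arrays were too small for an outlier test. Between control and Nrp1-deleted B16 hosts, 1075 genes passed (adjusted p under 0.05). The largest positive differences (control minus deleted, log2) were Gzmd 6.73 and Gzme 6.24, granzymes that fell by 4.27 and 4.13 in deleted hosts and were not called in controls, and Pf4 5.27, Arg1 4.50 and Dab2 4.38, myeloid genes that rose in controls. The Gzmd and Gzme differences were not called in the robust fit or without any 1 of 4 arrays, day 12 replicate 1 and early replicate 2 of controls and replicate 1 of both deleted groups. The largest negative differences were Jchain -3.35, the joining chain of antibodies, Il2 -2.68, a T cell growth factor, Stfa3 -2.41, a cysteine protease inhibitor, Septin4 -2.25 and Trat1 -2.09, a T cell receptor adaptor. Each of these was not called in controls and had a higher mean at day 12 in deleted hosts (2.89, 1.93, 2.65, 1.32 and 1.11). The Jchain difference was lost without any 1 of 4 arrays, day 12 and early replicate 1 of controls, day 12 replicate 2 and early replicate 1 of deleted hosts, that of Septin4 without day 12 control replicate 2, and that of Trat1 under most alternatives.

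Between B16 and MC38 tumours of control hosts, 1632 genes passed. The largest positive differences (B16 minus MC38, log2) were Ccl24 7.79, Dmkn 7.59, Timp1 5.64, S100a8 5.63 and S100a9 5.56, which fell in MC38 by 4.75, 4.08, 3.21, 3.11 and 3.35. In B16 Dmkn and Timp1 were called higher, and S100a8 (2.52) and S100a9 (2.21) were not called. Ccl24 was called higher in B16, but its call was lost without day 12 replicate 2 or early replicate 1. The largest negative ones were Gbp2b -3.94, a guanylate-binding protein, Myh10 -2.92, a myosin, Klra17 -2.66, a lectin-like receptor, Camk2n1 -2.53 and Jmy -2.46. Gbp2b, Myh10 and Klra17 were called higher at the later day in MC38 and were not called in B16. Camk2n1 was called lower in B16 and higher in MC38, but its B16 call was lost without day 12 replicate 2 or early replicate 2. Jmy was called lower in B16 and was not called in MC38. The Klra17 difference was lost in the robust fit and without any 1 of the 8 control arrays but MC38 day 6 replicate 1.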

How the results depend on the processing

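The day 12 against early comparison called 2745 genes, 2432 to 4103 under settings that kept all 4 arrays (4103 with array weights, 3974 with only the 4 arrays fitted, 3412 with the 8 B16 arrays) and 1712 to 1752 without single arrays. The control minus deleted difference called 1075 genes, 1813 with array weights, 1711 with the 8 B16 arrays and 601 to 980 without single arrays; its share of upward calls was 70.1%, and 81.8% after cyclic loess, 59.0% with array weights and 56.5% with the 8 B16 arrays. The B16 minus MC38 difference called 1632 genes, 2752 with array weights and 1019 to 1193 without single arrays; its upward share was 61.0%, and 42.6% after 75th percentile centring and 72.5% after cyclic loess. Lists with most members called 1 way numbered 13, 20 with array weights, 22 with the 8 and 23 with the 4 arrays fitted, and 8 to 12 without single arrays. Of the 30 named genes 28 to 29 kept the call without single arrays. Scaling moved the median difference of all genes from -0.0048 to 0.0309 (cyclic loess) and -0.0717 (75th percentile). With the replicate number as a block the counts were 2757, 1103 and 1647 genes, 15 lists and 30 named genes; the numbers do not establish pairs. Where leaving out arrays lowered a count, fewer arrays were in the fit; for the other settings the cause was not tested. No called gene named here changed sign, but the share of upward calls fell below 50% under 75th percentile centring both for day 12 against early (45.9%) and for B16 minus MC38. Signal limits genes near the bottom of the signal scale, Foxp3 among them.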

Other observations

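Genes outside the lists were looked at after their values were seen, and are given as log2 values with no test of the group. The circadian clock genes Nr1d2, Cry2, Hlf, Cry1 and Tef had lower means at day 12, while Clock, Dbp, Per3 and Npas2 did not. Nr1d2, a repressor of the clock, read 8.87 and 9.0 early and 7.04 and 7.56 at day 12 (-1.64), against -0.38 in Nrp1-deleted hosts. Cry2 differed by -1.42, Hlf by -0.92, Cry1 by -0.65, Ciart by -0.62, Tef by -0.58, Per2 by -0.53, Arntl by -0.42, Per1 by -0.33, Clock by 0.07, Npas2 by 0.07, Per3 by 0.27 and Dbp by 0.36. Nr1d2, Cry2, Hlf, Cry1 and Tef passed limma's test over all genes and the others did not, but Tef lost its call under 6 of 15 alternatives (adjusted p up to 0.327) and Hlf without day 12 replicate 1 (0.118). The hour at which mice were killed is not in the labels used here.

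Beside Nrarp, the Notch target Hey1 read 5.08 and 4.84 early and 3.48 and 3.47 at day 12 (-1.49, and -0.24 in deleted hosts), while Hes1 (-0.42), Dtx1 (0.10) and Notch1 (-0.13) moved less in controls. In deleted hosts Hes1 differed by 0.90, Dtx1 by 0.13 and Notch1 by 0.73, and only Notch1 of these was called there (limma adjusted p = 0.00295). Myb, a transcription factor of progenitors and activated T cells, read 8.71 and 8.67 early and 7.07 and 7.10 at day 12 (-1.61, and -1.79 in deleted hosts).

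Among myeloid regulators, Spi1, which encodes the lineage factor PU.1, read 6.06 and 5.73 early and 7.99 and 8.10 at day 12 (2.15, and -0.21 in deleted hosts). Irf5 differed by 1.46 (-0.38 in deleted hosts), Csf2rb, the receptor chain for the growth factor GM-CSF, by 1.65 (0.18), and Cebpb by 0.79 (0.17). Cebpa differed by 0.73 and was not called (limma adjusted p = 0.193; -0.30 in deleted hosts). Csf2, the gene of GM-CSF, read 6.80 and 7.0 early and 8.13 and 8.39 at day 12, a difference of 1.36, and differed by 1.81 in deleted hosts. Its call in controls was lost without day 12 replicate 2 or early replicate 1.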
